A study of Mus musculus with 44 samples.

Results

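Unique chromosomal interactions detected by NG Capture-C at standard input were compared with those detected by Tag-Capture-C from 100 ng of 3C library, with promoters of the α-globin, the β-globin and the Slc25a37 genes as viewpoints. The comparison used 5 of the 44 libraries of the series, taken by their labels: the 2 NG Capture-C libraries of cells fixed with 2% formaldehyde (technical replicates) and the 3 Tag-Capture-C 100 ng libraries. It addressed which strong contacts of the deep NG profile are kept in the shallow Tag-Capture-C profile. Cells of both groups were ter-119+ erythroid cells, selected from spleens of phenylhydrazine-treated female C57BL/6 mice and fixed with 2% formaldehyde. The age of the mice is not given in the sources used here. The sources give the Tag-Capture-C libraries both as aliquots and as biological replicates, so p-values measure only the spread between these libraries, which may be technical. The protocol, the amount of input, the experiment and the duplicate filter all differ between the groups and cannot be told apart.

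In Capture-C, cross-linked chromatin is cut with DpnII and ligated again, which joins fragments that were near one another in the nucleus, and oligonucleotides then enrich joints with a chosen promoter, the viewpoint. NG Capture-C breaks the joined DNA by sonication before adapters are ligated. Tag-Capture-C breaks it and adds adapters with a transposase (tagmentation). Hba-a1 and Hba-a2 are the α-globin genes and Hbb-b1 and Hbb-b2 the β-globin genes, whose promoters drive the adult globin chains in erythroid cells. In the mouse, the α-globin enhancers lie on the lower-coordinate side of these genes, and the β-globin locus control region, a cluster of enhancers, lies on the higher-coordinate side. Slc25a37 encodes Mitoferrin-1, which carries iron into mitochondria for haem synthesis.

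The paper treats the promoters of each globin pair as duplicates that its analysis cannot separate, and their interactions had been pooled. To show how alike the α-globin copies are before their starts, the 250 bases there are given for each gene from RefSeq (build GRCm38.p6, plus strand, Hba-a1 at chr11:32283422-32283671 and Hba-a2 at chr11:32296242-32296491). Capitals mark the CCAAT and TATAA motifs.
Hba-a1: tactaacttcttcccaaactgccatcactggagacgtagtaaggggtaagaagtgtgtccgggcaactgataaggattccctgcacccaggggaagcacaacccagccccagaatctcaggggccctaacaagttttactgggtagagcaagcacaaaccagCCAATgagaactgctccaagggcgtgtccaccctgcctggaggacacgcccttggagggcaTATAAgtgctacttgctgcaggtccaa
Hba-a2: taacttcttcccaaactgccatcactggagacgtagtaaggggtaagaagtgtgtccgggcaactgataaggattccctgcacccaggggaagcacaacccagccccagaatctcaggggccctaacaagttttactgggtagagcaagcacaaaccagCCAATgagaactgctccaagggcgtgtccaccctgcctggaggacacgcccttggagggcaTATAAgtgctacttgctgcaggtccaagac
With an offset of 3 bases, 247 of 247 aligned bases were identical. This stretch alone does not show why the copies cannot be separated. The ends of the viewpoint fragments, where joints form, and the β-globin promoters were not compared. Each sequence held 1 CCAAT and 1 TATAA on the strand shown and no GATC, the site that DpnII cuts. Of the 32851 RefSeq promoters in the same 250-base window, searched on both strands, 33.8% held CCAAT, 22.8% TATAA and 41.9% GATC. The other positions below are those of the deposited tables, whose build is mm9.

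The NG libraries held 168633 and 128026 unique interactions from α-globin, 155233 and 113813 from β-globin, and 61802 and 41172 from Slc25a37. The Tag-Capture-C libraries held 9035, 9836 and 9573 from α-globin, 9973, 10878 and 10489 from β-globin, and 4261, 4631 and 4354 from Slc25a37. Pooled over replicates, the Tag-Capture-C depth was 9.73%, 11.8% and 13.0% of the NG depth. Values were scaled to 100000 interactions per library, and a contact was called strong when its mean over the NG libraries was at least 100 per 100000. At that level, a Tag-Capture-C library held 9.04 to 9.84 interactions with an α-globin contact, 9.97 to 10.9 with a β-globin contact and 4.26 to 4.63 with a Slc25a37 contact. Counts were of interactions left after duplicate removal, so depth limits cover counting error only. The globin totals pool 2 promoters each, while those of Slc25a37 are of 1 promoter. Whether an interaction was counted for both promoters of a pair was not tested. Where it was, the globin depth is lower than these totals show.

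The 10 fragments directly beside the viewpoints (4 at α-globin, 4 at β-globin and 2 at Slc25a37) were strong in the NG libraries, at 159 to 500 per 100000, and were at 0 in all 18 low-input libraries of both protocols. They were treated as not measured in the low-input tables, a choice made after the counts were seen. They were left out of all values except the library totals and the percentages of interactions in cis. Their effect on the other counts is given in the closing section.

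Most strong contacts were also strong in Tag-Capture-C. Of 325 strong contacts at the 3 viewpoints, 321 had at least 1 interaction in each of the 3 Tag-Capture-C libraries and 278 were still strong in the Tag-Capture-C mean. Detection of strong contacts was close to saturated at this depth: a random draw of the NG counts down to the Tag-Capture-C depth (an expectation computed from the counts) gives 108.0 of 108, 96.0 of 96 and 120.3 of 121 detected in all 3 libraries at α-globin, β-globin and Slc25a37, against 108, 95 and 118 observed. All strong contacts were local: 321 lay within 50 kb of the viewpoint, and the farthest lay 52.1 kb from α-globin, 81.6 kb from β-globin and 41.4 kb from Slc25a37. The Tag-Capture-C mean lay within a factor of 2 of the NG mean for 312 of them, was lower by more than that for 12 and higher for 1.

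**Figure D1:**
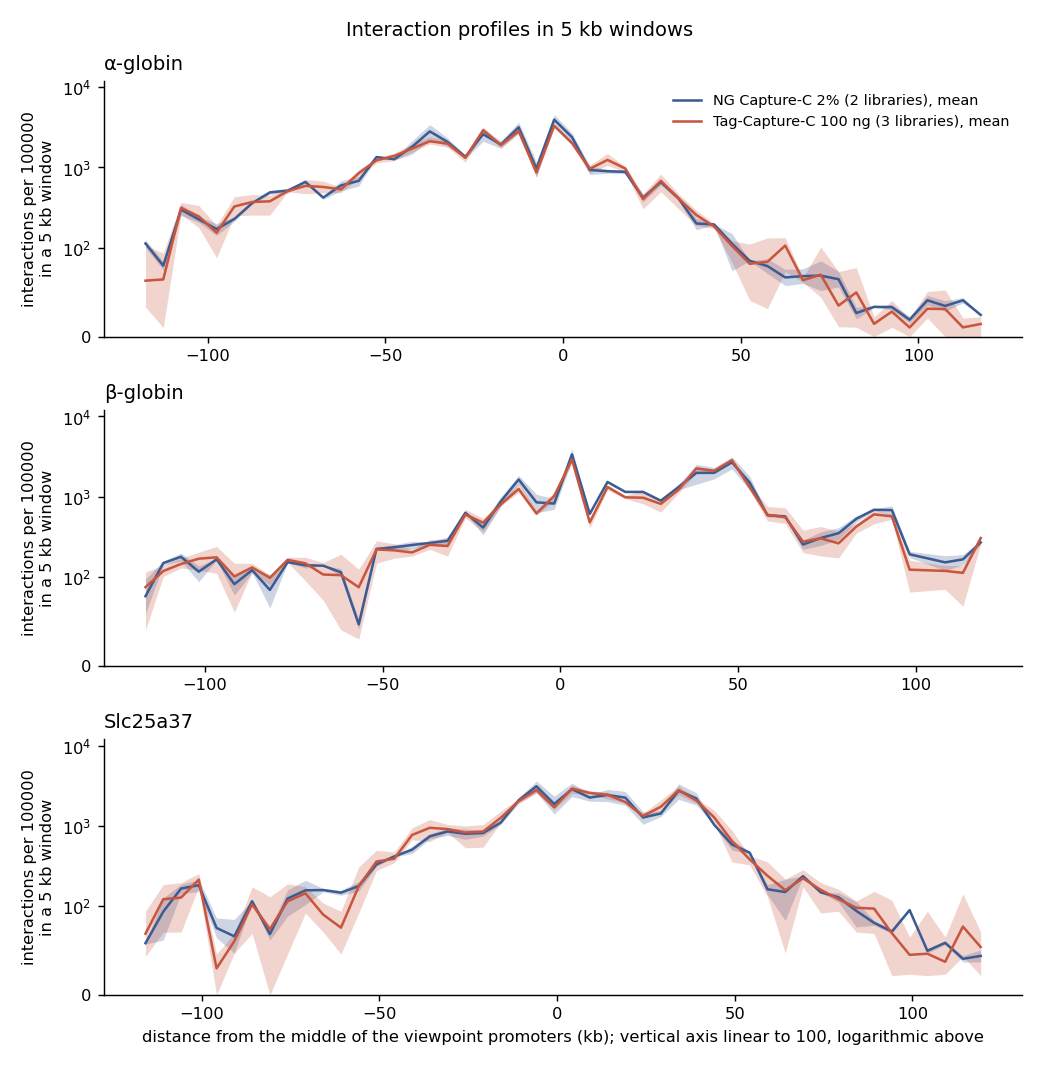
Interactions per 100000 in 5 kb windows (vertical axis, linear up to 100 and logarithmic above) by distance from the middle of the viewpoint promoters in kb (horizontal axis). Lines are means and bands the lowest to highest library, of 2 NG Capture-C libraries (blue) and 3 Tag-Capture-C 100 ng libraries (red). Of the 20 strongest NG windows over 10 kb away, 19, 20 and 19 were also among the 20 strongest of Tag-Capture-C.

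From the α-globin promoters, 108 contacts were strong, 47 of them under 10 kb away, 60 at 10 to 50 kb and 1 at 50 to 250 kb. All 108 were detected in each Tag-Capture-C library, with 2 to 48 interactions per contact and library (median 19). In the Tag-Capture-C mean 98 of 108 were still strong (90.7%), 44 of 47 under 10 kb and 54 of 60 at 10 to 50 kb. The 1 contact at 50 to 250 kb, chr11:32129461-32130254, was at 107 per 100000 in the NG mean and 67.2 ± 23.6 (SD, n = 3) in Tag-Capture-C.

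From the β-globin promoters, 96 contacts were strong, 39 under 10 kb, 54 at 10 to 50 kb and 3 at 50 to 250 kb. Of these, 95 were detected in all 3 Tag-Capture-C libraries and 76 were still strong (79.2%). By distance, 30 of 39, 44 of 54 and 2 of 3 were still strong. The exception in detection was chr7:111016872-111016947, a 76 bp fragment 39.7 kb away on the side of the locus control region. It had 155 and 152 interactions in the NG libraries and 0, 11 and 4 in the Tag-Capture-C libraries.

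From the Slc25a37 promoter, 121 contacts were strong, 41 under 10 kb and 80 at 10 to 50 kb. Of these, 118 were detected in all 3 Tag-Capture-C libraries and 104 were still strong (86.0%), 36 of 41 under 10 kb and 68 of 80 beyond. The contacts with a 0 were chr14:69922667-69922730 (51 and 85 NG interactions, and 0, 5 and 4 in Tag-Capture-C), chr14:69872016-69872766 (75 and 36, and 0, 5 and 7) and chr14:69944490-69944738 (59 and 46, and 0, 4 and 6). All 4 zeros over the 3 viewpoints were in Tag-Capture-C replicate 1, the library with the fewest interactions at each viewpoint. If interactions are independent, a 0 in that library allows up to 33.2 per 100000 at α-globin, 30.1 at β-globin and 70.4 at Slc25a37 (3 interactions).

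The loss of strong contacts was set beside the loss between NG replicates. Of 111 α-globin contacts that were strong in NG replicate 1, 101 were strong in NG replicate 2 (91.0%) and 95 in the Tag-Capture-C mean (85.6%). For β-globin these were 81 and 70 of 86 (94.2% and 81.4%), and for Slc25a37 102 and 99 of 113 (90.3% and 87.6%). These shares depend on how many contacts pass the fixed level in each library, and NG replicate 2 alone had 120, 106 and 122 strong contacts. Between lists of equal length, NG replicate 1 shared 98 of its 108 strongest α-globin fragments with NG replicate 2 and 94 with the Tag-Capture-C mean. For β-globin it shared 83 and 85 of 96, and for Slc25a37 107 and 105 of 121. NG replicate 2 shared 95, 82 and 105 with the Tag-Capture-C mean, so the order at β-globin depended on the replicate. At the other viewpoints the NG replicates shared more with each other than with that mean. The mean is of 3 libraries, and single Tag-Capture-C libraries shared 84 to 89, 76 to 78 and 95 to 101 with NG replicate 1. In the random draw of the NG counts, 105, 89.4 and 109 contacts would stay strong in the pooled libraries, against 98, 76 and 104 observed. The draw thins the counts that chose the contacts, so it carries that choice with it and can lie above what other libraries of the same profile would give. The gap therefore does not measure loss beyond depth.

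Contacts that were no longer strong had mostly been close to the threshold. The 10 lost at α-globin, 20 at β-globin and 17 at Slc25a37 had median NG levels of 132, 123 and 118 per 100000. Of these, 7, 17 and 15 were under 150 per 100000, but the highest were at 227, 196 and 235. At least 50 per 100000 remained in the Tag-Capture-C mean of 9, 18 and 16 of the lost contacts. In the opposite direction, 17, 9 and 15 fragments were strong in the Tag-Capture-C mean and not in the NG mean. Of these, 16, 9 and 13 had at least 50 per 100000 in the NG mean, and none lay over 250 kb away. On either side of the threshold, the weakest strong contact and the strongest other fragment of the NG mean were at 107 and 99.8 per 100000 at α-globin, 101 and 99.5 at β-globin, and 103 and 99.6 at Slc25a37.

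Below the strong level, detection fell off steeply. All fragments at 200 per 100000 or more in the NG mean (58 at α-globin, 38 at β-globin and 51 at Slc25a37) were seen in all 3 Tag-Capture-C libraries. At 50 to 100 per 100000 this held for 91.8% of 85, 93.7% of 63 and 83.3% of 60 fragments. At 20 to 50 it held for 51.4% of 111, 68.1% of 144 and 42.0% of 81, and at 10 to 20 for 15.4%, 22.5% and 7.75%. For the 20 to 50 class, the random draw gave 83.3%, 88.5% and 45.6%. The observed share was thus well below the draw at both globin viewpoints and close to it at Slc25a37, and this gap was not tested. The draw takes interactions as independent, which was not tested, and where they are not it can lie too high. On other chromosomes, the count-weighted mean per fragment was 1.60 and 1.69 in α-globin NG libraries and 2.07, 2.02 and 2.00 in Tag-Capture-C. At β-globin it was 1.64 and 1.70 against 2.45, 2.48 and 2.32, and at Slc25a37 1.14 and 1.16 against 1.31, 1.26 and 1.26. These values are not of the 20 to 50 class, and whether they bear on its gap was not tested. The gap is not read as a measure of loss beyond depth. Summed over the 20 to 50 class, Tag-Capture-C kept 101%, 95.6% and 116% of the NG level.

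**Figure D2:**
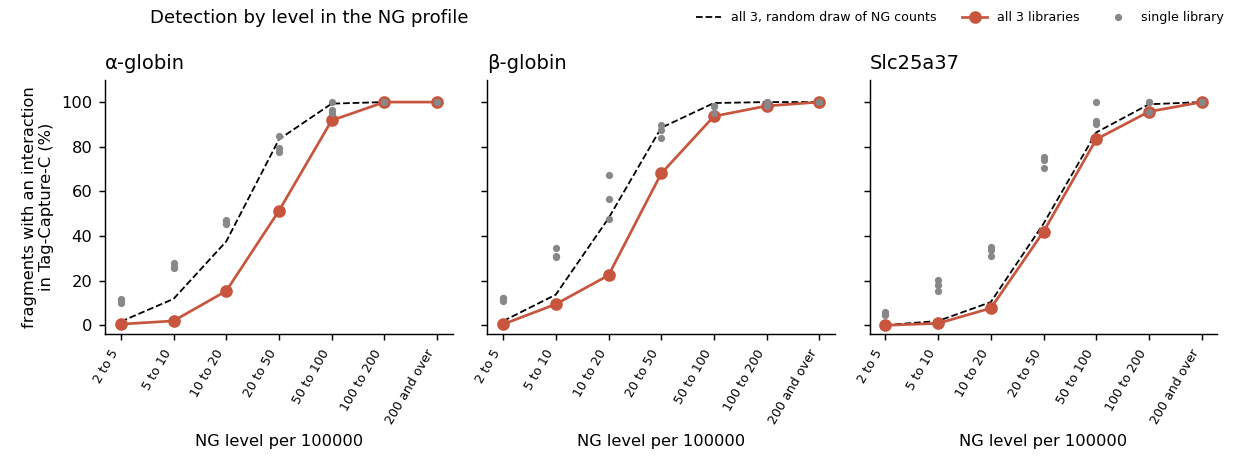
Share of fragments with at least 1 interaction in Tag-Capture-C 100 ng (vertical axis, %) by their level in the NG mean per 100000 (horizontal axis), for fragments on the viewpoint's chromosome. Red points are shares seen in all 3 libraries, grey points those of each single library, and the dashed line is the share for all 3 libraries from a random draw of the NG counts. At 20 to 50 per 100000 the red points stood at 51.4%, 68.1% and 42.0%.

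The strongest contacts under 10 kb lay 0.391 to 4.11 kb from a viewpoint. The strongest at α-globin, chr11:32192981-32194503, had 877 and 907 NG interactions and 35, 35 and 42 in Tag-Capture-C, or 624 and 394 ± 41.8 per 100000 (SD, n = 3). The next, chr11:32180845-32181398, was at 608 and 478 ± 8.47, and chr11:32185293-32185902 at 460 and 241 ± 84.5. At β-globin, chr7:110974331-110974901 had 618 and 694 NG interactions and 54, 47 and 28 in Tag-Capture-C, or 510 and 413 ± 138 per 100000. The next were chr7:110973665-110974330 at 461 and 358 ± 58.4 and chr7:110958540-110959282 at 397 and 344 ± 30.8. At Slc25a37, chr14:69900630-69901406 had 374 and 417 NG interactions and 22, 27 and 30 in Tag-Capture-C, or 817 and 596 ± 87.1 per 100000. It was followed by chr14:69900082-69900401 at 542 and 460 ± 54.8 and chr14:69896449-69898052 at 452 and 425 ± 74.3. These 9 contacts all had a lower mean in Tag-Capture-C, a direction partly set by choosing the highest NG means, and of all 325 strong contacts 203 were lower. Of the 11 measured fragments within 1 kb of a viewpoint, a set chosen after its values were seen, 10 had a lower Tag-Capture-C mean and 5 a lower mean in the 3 LI-Capture-C 100 ng libraries (sonicated, same low-input tables). All 11 were strong contacts, so the same limit holds, and 2 of them passed the test.

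At 10 to 50 kb, the strongest contacts lay on the enhancer sides of the globin loci. At α-globin these were chr11:32146903-32148395, chr11:32150623-32151061 and chr11:32151062-32151881, all on the lower-coordinate side 30.4 to 33.9 kb away, at 357, 345 and 345 per 100000 in the NG mean and 305 ± 52.7, 231 ± 69.5 and 246 ± 32.0 in Tag-Capture-C. At β-globin these were chr7:111013296-111014139, chr7:111020513-111020977 and chr7:111009748-111010461, on the side of the locus control region 32.6 to 43.4 kb away. Their NG means of 372, 355 and 355 stood beside 264 ± 53.6, 347 ± 51.1 and 348 ± 20.6 in Tag-Capture-C. At Slc25a37, chr14:69921057-69922306, chr14:69939527-69940379 and chr14:69938735-69939526, on the higher-coordinate side 16.7 to 35.1 kb away, were at 363, 357 and 309 in the NG mean and at 319 ± 89.9, 355 ± 112 and 347 ± 19.5 in Tag-Capture-C. None of these 9 contacts passed the test (edgeR adjusted p from 0.217 to 0.971).

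The asymmetry between the sides of each viewpoint was kept. At 12 to 40 kb from α-globin, the log2 ratio of lower-side over higher-side interactions was 2.14 and 2.85 in the NG libraries and 2.53, 2.50 and 2.19 in Tag-Capture-C. At β-globin, it was -2.02 and -2.41 in NG and -2.38, -2.33 and -2.22 in Tag-Capture-C. At Slc25a37, it was -0.88 and -1.69 in NG and -1.14, -1.15 and -1.05 in Tag-Capture-C. At each viewpoint the 3 Tag-Capture-C values lay between the NG replicates.

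At 50 to 250 kb, 3 β-globin contacts and 1 α-globin contact were strong. From β-globin, chr7:111058704-111059716, 81.6 kb away, had 212 and 137 NG interactions and 3, 9 and 9 in Tag-Capture-C, or 130 and 66.2 ± 31.3 per 100000. Its neighbour chr7:111058112-111058703 was at 106 and 105 ± 33.6, and chr7:111028613-111030399 at 115 and 105 ± 12.8. From α-globin, chr11:32124427-32126076 was at 99.8 and 86.5 ± 57.9 and chr11:32131330-32131943 at 93.8 and 90.8 ± 66.6. From Slc25a37, the 3 strongest fragments of this class, chr14:69958997-69959889, chr14:69956404-69956840 and chr14:69955765-69955991, had NG means of 53.0, 45.7 and 45.7 and Tag-Capture-C means of 14.9 ± 12.9, 61.5 ± 36.7 and 14.9 ± 12.9.

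Over 250 kb single contacts were at the limit of the Tag-Capture-C depth. The strongest from α-globin, chr11:31795673-31796660, had 34 and 30 NG interactions and 2, 0 and 2 in Tag-Capture-C. The strongest from β-globin, chr7:107613575-107614534, had 10 and 17 NG interactions and 0, 2 and 0, and that from Slc25a37, chr14:71021645-71023273, had 9 and 8 and none in the 3 Tag-Capture-C libraries. The last was at 17.2 per 100000 in NG, under the 64.8 to 70.4 that a count of 0 allows in each Tag-Capture-C library.

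Few single fragments passed the test for a different share of interactions between NG Capture-C and Tag-Capture-C. By the quasi-likelihood test of edgeR, with Benjamini-Hochberg adjustment over the fragments of each viewpoint, 3 of 172 α-globin fragments had an adjusted p under 0.05 (1.74%), 2 of 162 β-globin fragments (1.23%) and 0 of 105 Slc25a37 fragments (0%). At an unadjusted p under 0.05 there were 25, 20 and 8, each above the share of 0.05 expected without any difference. Fragments that did not pass cannot be read as equal, since small differences can be missed with so few libraries. All 3 α-globin calls were strong contacts and lower in Tag-Capture-C (3 of 108 strong contacts, all tested). Both β-globin calls were higher in Tag-Capture-C and not strong in NG (0 of 96 strong contacts called), and at Slc25a37 0 of 104 tested strong contacts were called. Over all strong contacts the median log2 ratio of the Tag-Capture-C to the NG mean was -0.10 at α-globin, -0.16 at β-globin and -0.07 at Slc25a37. Median fitted log2 fold changes over all tested fragments were -0.024, -0.0032 and -0.029. TMM factors over the tested fragments set these near 0, so they are on another scale and cannot be compared with the ratios. Strong contacts were chosen for high NG values, so a lower ratio is partly set by that choice.

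The α-globin fragment chr11:32150268-32150622, 355 bp long and 31.7 kb away on the enhancer side, was at 239 and 428 per 100000 in the NG libraries and at 133, 61.0 and 188 in Tag-Capture-C, with no overlap. Its counts were 398 and 537 against 12, 6 and 18, and its log2 fold change was -1.37 (SE 0.29, edgeR adjusted p = 0.000666). The LI-Capture-C 100 ng libraries were at 227, 391 and 265 and the Tag-Capture-C 200 ng libraries at 161, 135 and 183. Its neighbours chr11:32150623-32151061 and chr11:32151062-32151881 had log2 fold changes of -0.55 (adjusted p = 0.217) and -0.48 (adjusted p = 0.241).

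The other α-globin calls lay 512 and 487 bp from a viewpoint, where the fragment directly beside it was not measured. Fragment chr11:32185293-32185902 was at 358 and 563 per 100000 in NG and at 155, 244 and 324 in Tag-Capture-C (log2 fold change -0.91, SE 0.20, edgeR adjusted p = 0.000666). Fragment chr11:32192981-32194503 was at 526 and 722 in NG and at 387, 356 and 439 in Tag-Capture-C (log2 fold change -0.66, SE 0.15, edgeR adjusted p = 0.000666). It falls outside the rule for named contacts and is given so that all calls are named. In LI-Capture-C 100 ng their means were 482 and 514, and in Tag-Capture-C 200 ng 278 and 303.

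At β-globin, chr7:111006448-111007025, 578 bp long and 29.3 kb away on the side of the locus control region, was at 71.5 and 83.6 per 100000 in NG and at 251, 211 and 181 in Tag-Capture-C. Its counts were 110 and 94 against 25, 23 and 19 (log2 fold change 1.54, SE 0.39, edgeR adjusted p = 0.0223). Fragment chr7:110965894-110966118, 225 bp long and 2.62 kb from a promoter, between the globin pair, was at 20.8 and 29.4 in NG and at 80.2, 64.4 and 76.3 in Tag-Capture-C (log2 fold change 1.64, SE 0.43, edgeR adjusted p = 0.0223). Its counts in Tag-Capture-C were 8, 7 and 8. The filter used the mean share over all 5 libraries, and this fragment passed it only through its Tag-Capture-C values. Its adjusted p can therefore not be read as support for a difference, and with a filter of 2 it was not called. The groups did not overlap for either fragment. The LI-Capture-C 100 ng libraries were at 173, 72.1 and 209 for the first and at 51.9, 54.1 and 19.0 for the second, so that 1 of these libraries was within the NG range of the first fragment and 1 below that of the second.

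**Figure D3:**
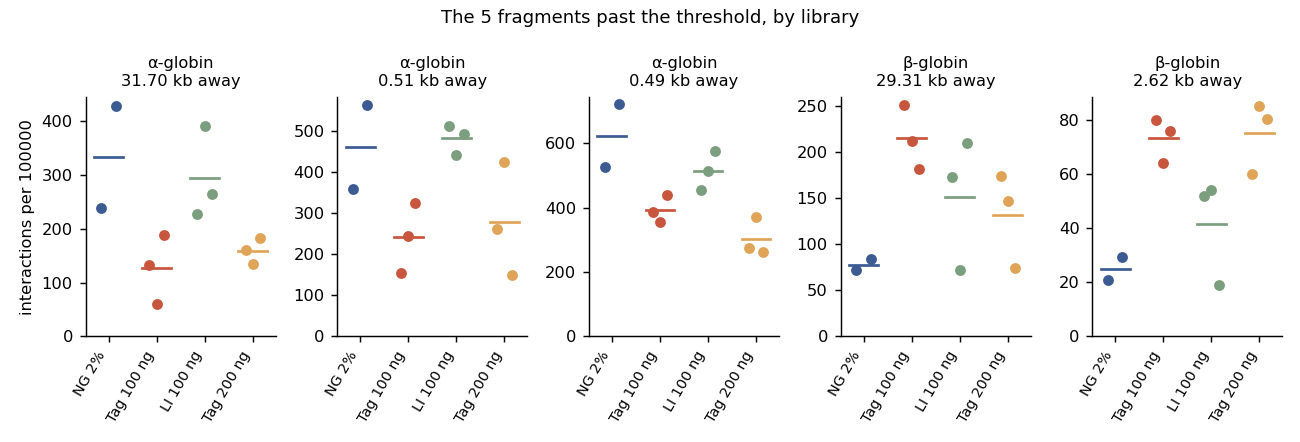
Interactions per 100000 (vertical axis, from 0) in each library for the 5 fragments with an adjusted p under 0.05, headed by viewpoint and distance from it. Points are libraries and bars group means, for NG Capture-C 2% (n = 2), Tag-Capture-C 100 ng, LI-Capture-C 100 ng and Tag-Capture-C 200 ng (n = 3 each). The 3 α-globin fragments were lower and the 2 β-globin fragments higher in Tag-Capture-C 100 ng than in NG.

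The calls depended on the libraries and the tool used. None of the 5 kept an adjusted p under 0.05 when either NG replicate was left out (0 calls at α-globin and at β-globin), which leaves 1 library in that group, although each kept its direction. Without NG replicate 1 and without NG replicate 2, the log2 fold change was -1.65 and -1.02 for chr11:32150268-32150622, -1.12 and -0.67 for chr11:32185293-32185902, and -0.78 and -0.53 for chr11:32192981-32194503. Over both β-globin calls, chr7:111006448-111007025 and chr7:110965894-110966118, it ranged from 1.48 to 1.73. At β-globin there were also 0 calls without Tag-Capture-C replicate 1 and without replicate 3. The 3 α-globin fragments were called when any of the Tag-Capture-C libraries was left out. DESeq2 called 1 α-globin fragment, chr11:32174234-32174797, which is none of these 3 and was higher in Tag-Capture-C, 1 β-globin fragment, chr7:111006448-111007025, and 0 Slc25a37 fragments (3 at an unadjusted p under 0.05). The 3 α-globin fragments had nearly the same log2 fold changes with DESeq2, -1.35, -0.89 and -0.64, with DESeq2 adjusted p of 0.0506, 0.0550 and 0.0638.

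**Figure D4:**
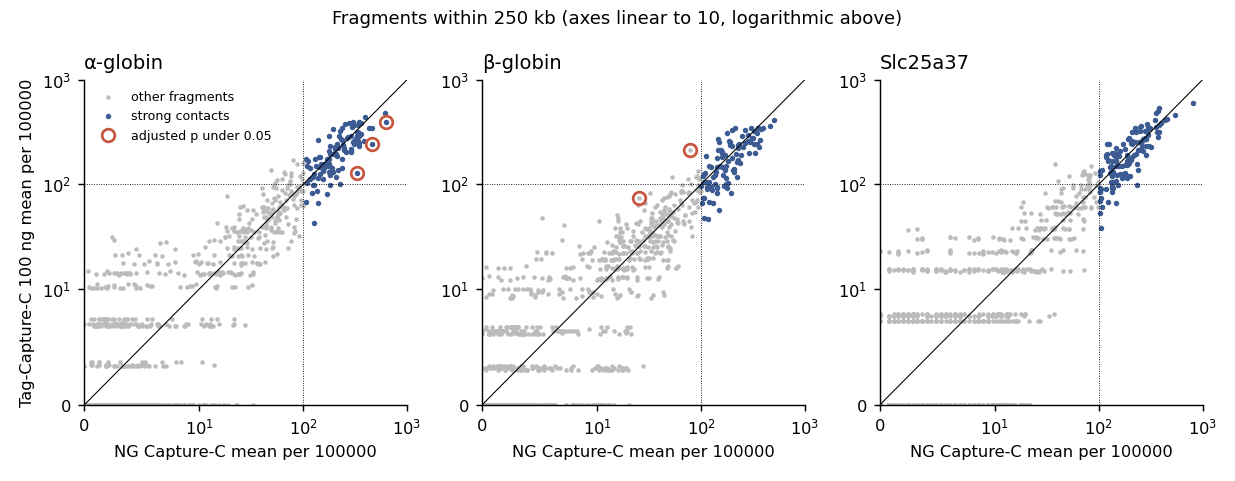
Mean interactions per 100000 in Tag-Capture-C 100 ng (vertical axis) against NG Capture-C 2% (horizontal axis) for fragments within 250 kb of each viewpoint, both axes linear up to 10 and logarithmic above. Blue points are strong contacts, rings the fragments with an adjusted p under 0.05, the solid line equality and the dotted lines 100 per 100000. Of the strong contacts, 312 of 325 lay within a factor of 2 of equality.

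Strong contacts on short fragments mostly had lower values in Tag-Capture-C. Of 21 strong contacts with fragments of up to 100 bp, a class chosen after its values were seen, 18 were lower in the Tag-Capture-C mean, against 185 of 304 strong contacts on longer fragments. Those of up to 100 bp had median log2 ratios of -1.07 at α-globin (5 fragments), -0.57 at β-globin (5) and -0.56 at Slc25a37 (11), and the longer ones -0.08, -0.16 and -0.05. In LI-Capture-C 100 ng the medians for the fragments of up to 100 bp were -0.49, -0.33 and -0.64. Without choosing by NG level, fragments of up to 100 bp within 50 kb held 6.23% and 7.95% of the interactions in that range in the α-globin NG libraries and 5.43%, 5.25% and 5.96% in Tag-Capture-C. At β-globin these shares were 6.10% and 8.25% against 5.38%, 5.14% and 5.78%, again without overlap. At Slc25a37 they were 7.04% and 9.19% against 8.26%, 6.46% and 7.24%, with overlap. LI-Capture-C 100 ng libraries held 5.11% to 6.12% at α-globin, 5.04% to 6.41% at β-globin and 5.94% to 7.27% at Slc25a37. At α-globin they too lay below both NG libraries, and at the other viewpoints they overlapped with NG. These shares were not tested, and groups of so few libraries can separate without a difference.

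Summing interactions in 5 kb windows removed the calls. None of 61 α-globin, 59 β-globin and 34 Slc25a37 windows had an edgeR adjusted p under 0.05 (0% each), with 2, 2 and 0 at an unadjusted p under 0.05 and 0, 0 and 0 with DESeq2. The smallest adjusted p was 0.849, 0.812 and 0.997. The fitted log2 fold change was under 0.5 in size for 48, 53 and 33 windows and at least 1 for 0, 4 and 0. Of the 20 strongest NG windows over 10 kb from the viewpoint, 19, 20 and 19 were among the 20 strongest in Tag-Capture-C, and the lists of the NG replicates shared 20, 19 and 18.

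The 3 strongest windows over 10 kb away held the enhancer side of each globin locus. At α-globin, chr11:32150001-32155000 had 3688 and 4306 NG interactions and 220, 194 and 188 in Tag-Capture-C, or 2821 and 2124 ± 270 per 100000 (SD, n = 3). The windows chr11:32165001-32170000 and chr11:32155001-32160000 were at 2603 and 2085 in NG and at 2919 ± 254 and 1989 ± 181 in Tag-Capture-C. At β-globin, chr7:111015001-111020000 had 3411 and 3522 NG interactions and 301, 296 and 293 in Tag-Capture-C, or 2675 and 2844 ± 155 per 100000. The windows chr7:111010001-111015000 and chr7:111005001-111010000 were at 1980 and 1975 in NG and at 2096 ± 115 and 2246 ± 226 in Tag-Capture-C. At Slc25a37, chr14:69935001-69940000 had 1307 and 1358 NG interactions and 134, 127 and 106 in Tag-Capture-C, or 2732 and 2774 ± 356 per 100000. The windows chr14:69915001-69920000 and chr14:69920001-69925000 were at 2418 and 2237 in NG and at 2435 ± 243 and 1971 ± 44.8 in Tag-Capture-C. In these windows, with the exception of chr11:32150001-32155000, the Tag-Capture-C mean lay between the values of the NG libraries.

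Over all listed fragments of the viewpoint's chromosome, Pearson's r of the mean NG and mean Tag-Capture-C profiles was 0.941 at α-globin (35779 fragments), 0.937 at β-globin (37860) and 0.944 at Slc25a37 (19149). The NG replicates had r of 0.971, 0.957 and 0.957, and pairs of Tag-Capture-C libraries 0.847 to 0.855, 0.826 to 0.840 and 0.811 to 0.848. Single NG and Tag-Capture-C libraries had r of 0.869 to 0.906, 0.858 to 0.884 and 0.851 to 0.901, so every pair across protocols had a higher r than any pair of Tag-Capture-C libraries. In 5 kb windows r of the means rose to 0.989, 0.989 and 0.992. Fragments share libraries and are not independent, and r of the means fell to 0.500, 0.463 and 0.454 on log2 values plus 1 and to 0.184, 0.176 and 0.193 on ranks, where the many fragments with few interactions weigh more.

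At both globin viewpoints, the share of interactions far from the viewpoint was higher in each Tag-Capture-C library than in each NG library. Interactions over 1 Mb away made up 37.1% and 33.9% of cis interactions in the α-globin NG libraries and 39.9%, 40.5% and 40.0% in Tag-Capture-C. At β-globin they made up 46.0% and 42.2% against 48.1%, 48.9% and 47.2%, and at Slc25a37 40.3% and 35.6% against 39.5%, 41.2% and 41.1%. The share within 250 kb was 55.2% and 58.9% in the α-globin NG libraries and 53.9%, 52.6% and 53.1% in Tag-Capture-C, a difference of -3.88 percentage points. At β-globin it was 50.0% and 53.7% against 47.9%, 47.6% and 48.4%, a difference of -3.86, and at Slc25a37 55.0% and 60.2% against 55.8%, 54.4% and 55.2%, a difference of -2.42. Exact two-sided permutation tests gave p = 0.2, 0.2 and 0.6 (0.3, 0.3 and 0.6 after Benjamini-Hochberg adjustment over the 3 viewpoints). With 2 libraries against 3, p cannot fall below 0.2 in this test, so no difference of this kind could pass the threshold. The groups did not overlap at the globin viewpoints and did at Slc25a37.

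**Figure D5:**
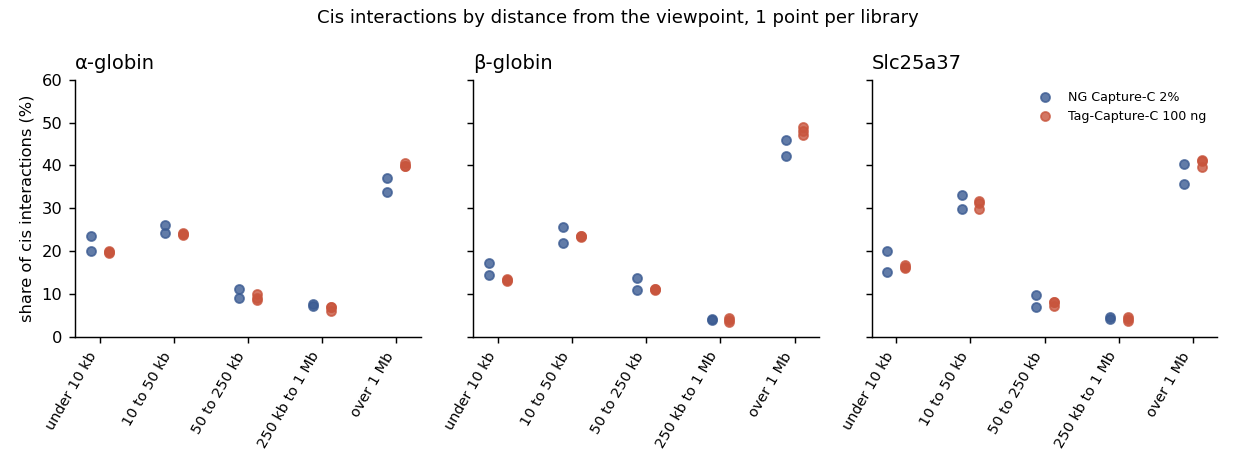
Share of cis interactions (vertical axis, %) in 5 classes of distance from the viewpoint (horizontal axis), 1 point per library, for NG Capture-C 2% (blue, n = 2) and Tag-Capture-C 100 ng (red, n = 3). Over 1 Mb all red points lay above all blue points at α-globin and β-globin.

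Interactions in cis made up 63.0% and 69.3% of all α-globin interactions in the NG libraries and 67.2%, 67.5% and 66.5% in Tag-Capture-C. At β-globin they made up 61.2% and 65.7% against 64.1%, 64.4% and 63.5%. At both globin viewpoints the Tag-Capture-C libraries lay between the NG replicates (differences of 0.92 and 0.52 percentage points, exact permutation test p = 0.8 each). At Slc25a37 the NG libraries were at 62.1% and 66.4% and the Tag-Capture-C libraries at 68.4%, 68.0% and 68.9%, all above both NG libraries (difference 4.21 percentage points, exact permutation test p = 0.2, the smallest possible, adjusted 0.6). These percentages include the fragments directly beside the viewpoints, at 0 in Tag-Capture-C. In the NG libraries these held 2018 and 2423 interactions at α-globin, 1370 and 1427 at β-globin and 407 and 460 at Slc25a37. They raise the NG percentages only, and differences without them were not computed.

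The same strong contacts were read in LI-Capture-C 100 ng for comparison. All 108 at α-globin, all 96 at β-globin and 116 of 121 at Slc25a37 were detected in all 3 LI-Capture-C libraries, and 98, 79 and 98 were still strong in their mean, against 98, 76 and 104 in Tag-Capture-C. LI-Capture-C totals were 13210 to 13828, 10517 to 11567 and 4156 to 4302 interactions. These differences were not tested.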

How the data were processed

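Interactions of each viewpoint with each DpnII fragment were analysed from the deposited tables, which hold counts of unique interactions without normalization. The authors trimmed and mapped reads (Trim Galore, Bowtie and mm9, per the submitters' processing notes) and removed read pairs with identical ends as duplicates. For low-input libraries they also removed pairs whose ends differed slightly, which lowers their counts, and its effect on single fragments was not tested. Reads were not examined. The 6 tables used hold the 5 libraries compared and others of the same experiments, with 0 columns of no sample. Fragments were matched by name between the tables. No gene annotation of mm9 was joined.

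Contacts, thresholds and lists were chosen with earlier results of these data known. Named contacts were, per viewpoint, the 3 strongest fragments by NG mean under 10 kb, at 10 to 50 kb and at 50 to 250 kb, the strongest over 250 kb, up to 3 strong contacts with a 0 in any Tag-Capture-C library, the 3 strongest 5 kb windows over 10 kb away, and, of each test, the 2 calls with the smallest adjusted p in each direction. Distances were taken to the nearest viewpoint fragment.

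Counts were tested with edgeR 4.0.16 (R 4.3.3) by the quasi-likelihood test with TMM factors, over fragments or windows of the viewpoint's chromosome with at least 5 expected interactions in the smallest library, and Benjamini-Hochberg adjustment per viewpoint. Expected interactions were taken from the mean share over the 5 libraries. SE is the log2 fold change divided by the root of the F statistic. DESeq2 1.42.0, other filters and factors, each library left out and a replicate block were alternatives. The test was also run on simulated counts, with results not given here. Shares over libraries were compared with exact permutation tests in SciPy 1.17.1, and tables and plots were made with Python 3.11.15, pandas 2.3.3, NumPy 2.4.6 and matplotlib 3.10.9. The random draw of NG counts is the exact expectation for sampling without replacement. Depth ran from 4261 to 10878 interactions per Tag-Capture-C library and from 41172 to 168633 per NG library.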

Additional observations from a re-analysis of the deposited data

How the results depend on the processing

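Calling contacts strong at 50 per 100000 gave 96.4%, 96.9% and 92.8% detected and 86.5%, 86.8% and 92.3% still strong at α-globin, β-globin and Slc25a37. At 200 per 100000, 100% were detected at β-globin and Slc25a37, and 84.5% and 68.4% were still strong at α-globin and β-globin. Requiring at least 3 interactions gave 98.1%, 95.8% and 84.3% detected, and scaling to cis interactions 87.8%, 88.9% and 88.2% still strong. Choosing contacts in NG replicate 1 gave 85.6% still strong at α-globin and 99.1% detected at Slc25a37. Including the fragments beside the viewpoint, an alternative chosen after seeing the data, gave 96.4%, 94.9% and 95.9% detected, 87.5% still strong at α-globin, 8, 6 and 2 called fragments, 1 and 2 called windows at the globin viewpoints, r of 0.903, 0.905 and 0.918 over fragments, and 0.983 and 0.979 over globin windows. Over 10 kb r was 0.920, 0.926 and 0.921. On log2 values r was 0.500, 0.463 and 0.454 for fragments and 0.545, 0.574 and 0.523 for windows, and on ranks 0.184, 0.176, 0.193, 0.383, 0.435 and 0.400. In 20 kb windows r was 0.997 at α-globin and 0.998 at Slc25a37. DESeq2 called 1 and 1 globin fragments, no TMM factors 5 at α-globin, a filter of 2 gave 1 at β-globin, and a filter of 10 gave 0 and 1. Without a filter 362, 386 and 82 fragments and 271, 112 and 41 windows were called, all lower in Tag-Capture-C, and the β-globin calls turned to log2 fold changes of -0.69 (chr7:110965894-110966118) and -0.79 (chr7:111006448-111007025). Without a filter the median log2 fold change over all features was -1.71, -1.84 and -1.67 for fragments and -2.48, -2.43 and -1.80 for windows. In the main runs it was -0.024, -0.0032 and -0.029 for fragments and -0.021, 0.118 and -0.017 for windows. Values without a filter were thus shifted as a whole, and their signs and calls cannot be read for single contacts. The cause of the shift was not tested. The share within 250 kb at Slc25a37 turned to 0.896 percentage points as a share of all interactions.

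With the replicate number as a block, 0 fragments were called at each viewpoint, and 0 windows. The numbers only name libraries: deviations of number 1 and number 2 had r of 0.0097 and 0.0080 at α-globin, -0.0996 and -0.115 at β-globin, and 0.0366 and 0.186 at Slc25a37.

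Leaving out each library gave 100% to 100%, 98.8% to 100% and 97.5% to 100% detected, 85.6% to 93.5%, 71.7% to 81.4% and 81.8% to 88.4% still strong, 0 to 5, 0 to 3 and 0 to 3 called fragments, and 0 to 0, 0 to 1 and 0 to 0 called windows. The Slc25a37 calls came without NG replicate 1 (3) and without Tag-Capture-C replicate 1 (1). Fragment r was 0.924 to 0.946, 0.919 to 0.933 and 0.924 to 0.942, and window r 0.983 to 0.990, 0.978 to 0.990 and 0.985 to 0.992. The cis difference was -2.23 to 4.07, -1.69 to 2.74 and 2.06 to 6.36 percentage points, negative at the globin viewpoints without NG replicate 1. The difference within 250 kb was -5.75 to -2.00, -5.72 to -2.00 and -5.01 to 0.169, positive at Slc25a37 without NG replicate 2. A lone NG library was assumed to vary like the others. Of the values of main results under all alternatives, 146 kept their direction and size, 93 moved and 4 reversed. By the totals as counted, depth limits single contacts at Slc25a37 most, where 100 per 100000 is under 5 interactions in a Tag-Capture-C library. The globin totals pool the promoters of a pair, so this order holds for pooled counts only.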

Other observations

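Between the β-globin promoters, a stretch of 10 fragments (chr7:110965894-110969492), chosen after its values were seen, had 361 and 472 interactions per 100000 in the NG libraries and 501, 506 and 658 in Tag-Capture-C. In it, 5 fragments were at least 2-fold higher in the Tag-Capture-C mean. They had 2 to 16 interactions per Tag-Capture-C library and NG means of 5.18 to 52.6 per 100000. How often fragments of such levels reach this ratio elsewhere was not counted. The widest ratio was that of chr7:110967225-110967442, with 5 and 8 NG interactions and 4, 6 and 5 in Tag-Capture-C, or 5.18 and 47.6 per 100000. LI-Capture-C 100 ng libraries were at 532 to 769 over the stretch and Tag-Capture-C 200 ng libraries at 402 to 580. The difference over the stretch was not tested.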
